A study of Mus musculus with 9 samples.

Results

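The angiopoietin and Tie pathway was followed through 7 genes in the deposited expression values of sorted fetal pulmonary lymphatic endothelial cells (PLECs). These were the angiopoietin genes *Angpt1*, *Angpt2* and *Angpt4*, the receptor genes *Tek* and *Tie1*, the receptor phosphatase gene *Ptprb*, and *Svep1*. They were taken by gene symbol, and all 7 were found among the 25206 genes of the table. The cells came from lungs of C57BL/6NCrl mouse embryos at gestational days E16.5, E17.5 and E18.5. They had been sorted as CD45-/Epcam-/CD31+/Vegfr3+/Lyve1+/Pdpn+ cells, and the sources used here name no treatment or genetic change on any day. Each day had 3 samples and 1 array per sample, and each sample pooled the lungs of 2 litters. P-values therefore measure the spread between pooled samples of sorted cells. In such samples, fewer cells of a type and less RNA per cell cannot be told apart.

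Angiopoietins are secreted ligands of the receptor tyrosine kinase Tie2, which *Tek* encodes. Angpt1 activates the receptor, whereas Angpt2 activates or blocks it depending on the context, and Tie1 is a related receptor that modulates Tie2 signaling. The phosphatase VE-PTP, encoded by *Ptprb*, removes phosphate from Tie2, and the extracellular matrix protein Svep1 binds Tie1. In mice, Angpt2, Tie1 and Svep1 are known to be needed for normal lymphatic vessels.

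RefSeq promoter windows (GRCm38.p6, from 250 bases before to 50 bases after a start site) were at hand for 4 of the 7 genes. The start site is the first base of the gene's span for *Angpt4*, *Tie1* and *Svep1*, whereas that of *Tek* lies 203 bases inside the span, so that most of its window is within the gene. Those of *Tek*, *Tie1* and *Svep1* are shown because they are the receptor genes and the gene of the Tie1-binding protein. All lie on chromosome 4, *Tek* on the plus strand at chr4:94739039-94739338, and *Tie1* and *Svep1* on the minus strand at chr4:118489800-118490099 and chr4:58206547-58206846. Capitals mark the letters GGAA, the core bound by Ets factors, or its reverse complement TTCC.
Tek promoter window: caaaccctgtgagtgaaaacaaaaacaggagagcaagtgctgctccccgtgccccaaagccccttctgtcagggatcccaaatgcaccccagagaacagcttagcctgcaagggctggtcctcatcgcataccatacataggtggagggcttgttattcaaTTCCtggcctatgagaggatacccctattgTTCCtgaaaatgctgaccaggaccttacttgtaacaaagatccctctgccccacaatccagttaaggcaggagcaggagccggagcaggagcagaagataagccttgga
Tie1 promoter window: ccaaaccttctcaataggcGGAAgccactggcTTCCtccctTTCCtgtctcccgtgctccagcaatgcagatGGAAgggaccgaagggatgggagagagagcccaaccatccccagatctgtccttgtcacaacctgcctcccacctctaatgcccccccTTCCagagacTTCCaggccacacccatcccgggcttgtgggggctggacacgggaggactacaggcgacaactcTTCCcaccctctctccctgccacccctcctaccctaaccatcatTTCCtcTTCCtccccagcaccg
Svep1 promoter window: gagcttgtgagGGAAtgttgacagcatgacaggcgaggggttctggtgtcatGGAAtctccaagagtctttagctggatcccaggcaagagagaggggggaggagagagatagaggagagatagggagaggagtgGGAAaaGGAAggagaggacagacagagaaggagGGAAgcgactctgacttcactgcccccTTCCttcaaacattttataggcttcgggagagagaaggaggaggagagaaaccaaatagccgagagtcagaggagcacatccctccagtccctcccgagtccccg
Counting both strands, the letters occurred 2 times in the window of *Tek*, 9 times in that of *Tie1*, 6 times in that of *Svep1* and 5 times in that of *Angpt4*, which is not shown. They occur in 96.0% of all 32851 windows, with a median of 3, so that their presence is common. The longer CGGAAG, which contains the core, or its reverse complement CTTCCG occurred 1 time in *Tie1* and not in the other 3 windows, and in 16.9% of all windows. In all, 12 motifs were counted and these 2 were chosen afterwards, and a match is only a description of the letters.

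Expression is given as the log2 value of the arrays, which does not compare levels between genes. The medians of the arrays ran from 3.79 to 3.91, and 6 of the 7 genes lay above the median on all 9 arrays. The exception was *Angpt4*, which was above it on 1 array. The defining lymphatic markers *Prox1*, *Pdpn*, *Lyve1* and *Flt4* were above the median on all 9 arrays. The same held for all 10 endothelial, 9 mural cell and 5 megakaryocyte and platelet markers described below, and for 7 of 9 epithelial markers. Lying above the median therefore does not set lymphatic cells apart. Of the 14096 genes above the median on at least 1 array, all 7 pathway genes among them, 1407 passed the test between E18.5 and E16.5 at an FDR *q* under 0.05 (limma). Of these, 532 were higher and 875 lower at E18.5.

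None of the 7 genes passed the test in any comparison of days, although their spread differed widely. Between E18.5 and E16.5, 0 of 7 passed, where 9.98% of all tested genes did. At an unadjusted *p* under 0.05 the count was 1 of 7, *Angpt4*, against 28.1% of all tested genes. For no gene did the samples of E16.5 and E18.5 lie wholly apart, which 30.2% of all tested genes did. Over the 3 days 0 of 7 passed the moderated F test, beside 9.09% of tested genes, and 0 of 7 were at an unadjusted *p* under 0.05, beside 26.5%. The sizes below are given with 95% intervals, since a *p* that misses the threshold does not show equal expression.

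**Figure D1:**
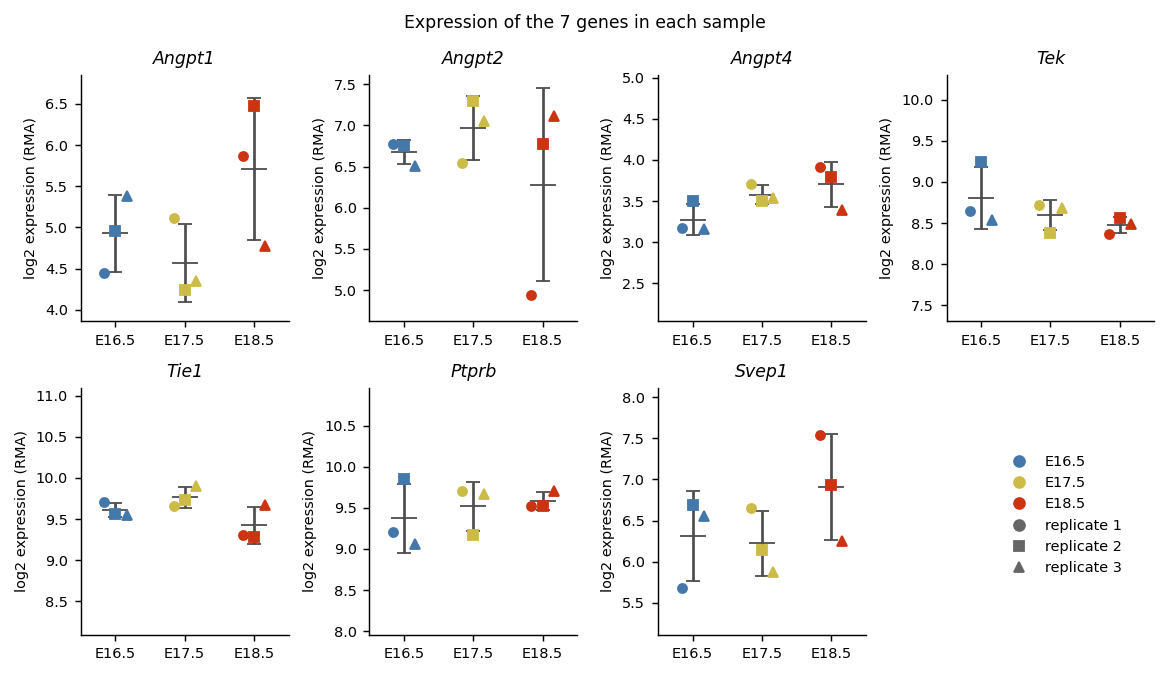
Log2 expression of the 7 genes (vertical axes, all of one length in log2 units) in each sample by gestational day, with the day mean and SD (n = 3) in gray. The samples of any pair of days overlap for every gene, and *Angpt2* at E18.5 holds 1 low sample at 4.94.

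Among the ligands, *Angpt1*, the gene of the activating ligand, was highest in 2 of the 3 samples of E18.5. Its log2 values were 4.45, 4.96 and 5.38 at E16.5, 5.11, 4.24 and 4.35 at E17.5, and 5.87, 6.48 and 4.78 at E18.5. The third sample of E18.5 lay among those of the earlier days, so that the groups overlapped. The mean was 4.93 ± 0.46 (SD, n = 3) on the first day, while E18.5 had 5.71 ± 0.86 (SD, n = 3). The log2 difference of 0.78 had an SE of 0.43 and an interval from -0.24 to 1.81 (FDR *q* = 0.282, limma). It ranged from 0.40 without E18.5 replicate 2 to 1.25 without E18.5 replicate 3 (FDR *q* = 0.565 and 0.0692). Against E17.5, with a mean of 4.57 ± 0.48 (SD, n = 3), E18.5 was 2.20-fold higher, a log2 difference of 1.14 with an interval from 0.22 to 2.06. Its unadjusted *p* was 0.0200 in the limma fit across all genes, but it did not pass after adjustment (FDR *q* = 0.188). Without E18.5 replicate 3 this log2 difference was 1.60 and passed (FDR *q* = 0.0339, limma), whereas without E18.5 replicate 2 it was 0.76 (FDR *q* = 0.377).

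*Angpt2*, which encodes the context-dependent ligand, had 1 sample far below the other 8. It measured 6.77, 6.75 and 6.50 at E16.5, 6.54, 7.30 and 7.06 at E17.5, and 4.94, 6.77 and 7.12 at E18.5 on the log2 scale. E18.5 replicate 1 was thus lowest of all, while the other two samples of that day lay within the range of the earlier days. The log2 difference between E18.5 and E16.5 was -0.40 with an SE of 0.52 and an interval from -1.63 to 0.83 (FDR *q* = 0.647, limma). Its direction rested on that sample, since the difference was 0.27 without it (FDR *q* = 0.349). The difference between E18.5 and E17.5 was -0.69 with an interval from -1.74 to 0.36 (FDR *q* = 0.478), and -0.02 without E18.5 replicate 1.

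*Angpt4*, which encodes a further Tie2 ligand, lay at or below the array medians. Its log2 values were 3.18, 3.50 and 3.16 at E16.5, 3.71, 3.50 and 3.53 at E17.5, and 3.92, 3.80 and 3.40 at E18.5. Only E18.5 replicate 1 reached above the median of its array, and the lowest sample of E18.5 fell inside the range of E16.5. The log2 difference between these days was 0.43 with an SE of 0.17 and an interval from 0.02 to 0.83 (FDR *q* = 0.159, limma). With a signal near the array medians, the size of this difference is uncertain.

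Among the receptors, *Tek*, the gene of Tie2, had 1 sample above the other 8. It measured 8.65, 9.24 and 8.54 at E16.5, 8.72, 8.39 and 8.68 at E17.5, and 8.37, 8.57 and 8.49 at E18.5 on the log2 scale. E16.5 replicate 2 was the highest, and the lowest sample of E16.5 lay between those of E18.5. The mean was 8.81 ± 0.38 (SD, n = 3) on the first day, and E17.5 had 8.59 ± 0.18 (SD, n = 3). For E18.5 it was 8.48 ± 0.10 (SD, n = 3). The log2 difference between E18.5 and E16.5 was -0.33 with an interval from -0.79 to 0.13 (FDR *q* = 0.303, limma), and -0.11 without E16.5 replicate 2 (FDR *q* = 0.579).

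*Tie1*, the gene of the second receptor, was the least variable of the 7. Its log2 values were 9.71, 9.57 and 9.55 at E16.5, 9.66, 9.73 and 9.91 at E17.5, and 9.31, 9.28 and 9.68 at E18.5. Replicates 1 and 2 of E18.5 were below all other samples, whereas replicate 3 of that day was not. The log2 difference between E18.5 and E16.5 was -0.18 with an interval from -0.51 to 0.14 (FDR *q* = 0.412, limma). It was -0.31 without E18.5 replicate 3 and -0.11 without E18.5 replicate 2. Between E18.5 and E17.5 it was -0.34 with an interval from -0.64 to -0.04, at an unadjusted *p* of 0.0293 in the limma fit across all genes (FDR *q* = 0.226).

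*Ptprb*, the gene of the phosphatase that acts on Tie2, overlapped between all days. It measured 9.21, 9.85 and 9.07 at E16.5, 9.71, 9.17 and 9.67 at E17.5, and 9.52, 9.52 and 9.71 at E18.5 on the log2 scale. All samples of E18.5 lay within the range of E16.5, which held both the highest and the lowest value. The log2 difference between these days was 0.21 with an interval from -0.29 to 0.70 (FDR *q* = 0.545, limma), and it ranged from 0.05 without E16.5 replicate 3 to 0.44 without E16.5 replicate 2. The means of the days were 9.37, 9.52 and 9.58, a difference smaller than the SD of 0.42 at E16.5.

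*Svep1*, the gene of the Tie1-binding matrix protein, was highest in 2 samples of E18.5, as was *Angpt1*. Its log2 values were 5.68, 6.69 and 6.56 at E16.5, 6.65, 6.14 and 5.87 at E17.5, and 7.54, 6.94 and 6.26 at E18.5. Replicates 1 and 2 of E18.5 exceeded all samples of the earlier days, and replicate 3 lay inside the range of both. The log2 difference between E18.5 and E16.5 was 0.60 with an SE of 0.38 and an interval from -0.29 to 1.50 (FDR *q* = 0.335, limma). Between E18.5 and E17.5 it was 0.69 with an interval from -0.11 to 1.48 (FDR *q* = 0.347). Without E18.5 replicate 1 these differences were 0.29 and 0.37, and without E18.5 replicate 3 they were 0.93 and 1.02, none of which passed (limma). Without E16.5 replicate 1 the first was also 0.29.

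Neither day interval alone gave a call among the 7 genes. From E16.5 to E17.5, 0 of 7 passed, beside 0.149% of tested genes, and 0 of 7 had an unadjusted *p* under 0.05, beside 14.7% (limma). The log2 differences of that interval ran from -0.36 for *Angpt1* to 0.30 for *Angpt4*. From E17.5 to E18.5, 0 of 7 passed, beside 1.89% of tested genes (1.18% higher and 0.717% lower), and *Angpt1* and *Tie1* were at an unadjusted *p* under 0.05, 2 of 7 beside 17.6%. The samples overlapped for all 7 genes in both intervals, whereas 20.1% and 19.8% of tested genes did not overlap. The difference between the later and the earlier change was tested directly and passed for 0 of 7 genes and for 0 of all tested genes. At an unadjusted *p* under 0.05 these counts were 0 of 7 and 1143, the latter 8.11% of tested genes (limma).

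**Figure D2:**
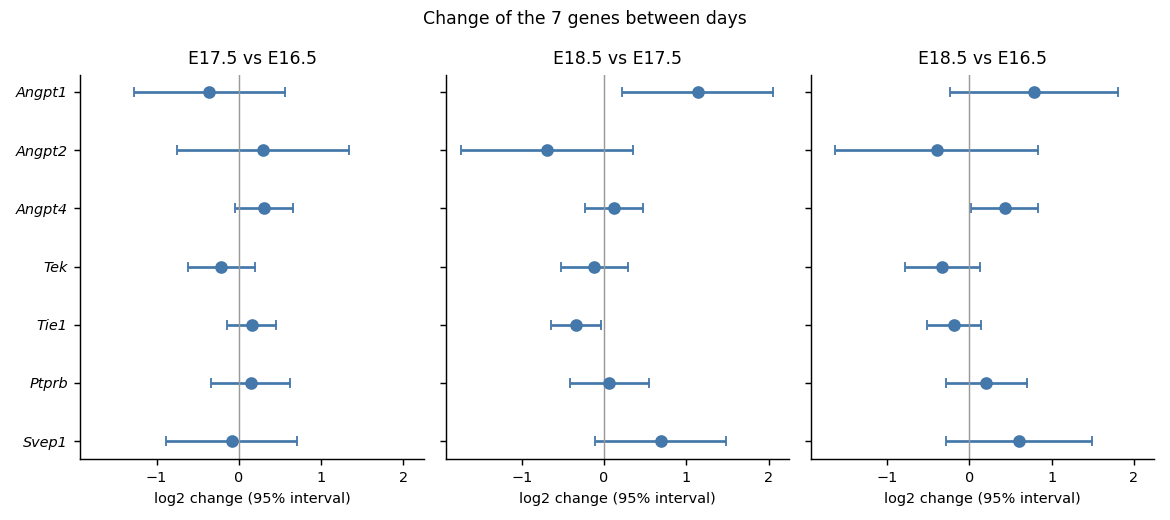
Log2 change of the 7 genes (horizontal axes) in the 3 comparisons of days, with points for the limma estimate and bars for its 95% interval. The intervals of *Angpt1* and *Angpt2* are the widest, and that of *Tie1* is the narrowest in each comparison.

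The spread within days differed between the 7 genes. The within-day SD of *Angpt2* was 0.718 on the log2 scale, above that of 99.2% of tested genes, but this rested on 1 sample. By day its SD was 0.149, 0.387 and 1.17, and without E18.5 replicate 1 the within-day SD was 0.284, above that of 73.6% of tested genes. *Angpt1* followed with 0.627, above 98.4% of tested genes, and *Svep1* with 0.538, above 96.9%. *Ptprb* had 0.302, *Tek* 0.249 and *Angpt4* 0.204. *Tie1* had 0.155, above that of only 23.7% of tested genes. Leaving out any 1 sample, *Angpt1* stayed above 95.6% or more of tested genes and *Svep1* above 94.8% or more.

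Across the 9 samples, *Angpt1* and *Tie1* ran in opposite order, with Pearson's r of -0.93 (exact permutation test, two-sided, *p* = 0.00019, adjusted *p* = 0.00285 over 15 pairs). Spearman's rho was -0.967 (exact permutation *p* = 0.000165, adjusted *p* = 0.00248). The samples with the 2 highest values of *Angpt1*, E18.5 replicates 1 and 2, had the 2 lowest of *Tie1*. Without these samples r was -0.785, and with the mean of each day taken out it was -0.880. Of all tested genes, 0.319% were as far from 0 in their r with *Angpt1* and 0.234% in their r with *Tie1*, in either direction.

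*Svep1* ran with *Angpt1* and against *Tie1*. With *Angpt1*, r was 0.823 (exact permutation *p* = 0.00621, adjusted *p* = 0.0311) and rho was 0.85 (exact permutation *p* = 0.00607, adjusted *p* = 0.0304). Without the 2 samples farthest from the median of *Angpt1* it was 0.808, and 0.734 with day means taken out. With *Tie1*, r was -0.865 (exact permutation *p* = 0.00278, adjusted *p* = 0.0209) and rho was -0.883 (exact permutation *p* = 0.00307, adjusted *p* = 0.0231). Without the 2 samples farthest from the median of *Tie1* it was -0.733, and -0.851 with day means taken out. For *Angpt1* and *Svep1*, 3.37% of tested genes were as far from 0 in their r with the first gene and 2.405% with the second. For *Tie1* and *Svep1* these shares were 1.469% and 1.085%.

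*Angpt2* ran against *Svep1*, but the relation rested on few samples. Its r was -0.778 (exact permutation *p* = 0.0126, adjusted *p* = 0.0474), whereas rho was -0.567 (exact permutation *p* = 0.121, adjusted *p* = 0.258). Without E17.5 replicate 2 and E18.5 replicate 1, the samples farthest from the median of *Angpt2*, r was -0.473. With the mean of each day taken out it was -0.735. Of tested genes, 3.015% were as far from 0 in their r with *Angpt2* and 4.441% with *Svep1*. The remaining 11 pairs did not pass, and r ranged from -0.56 for *Angpt1* and *Angpt2* to 0.65 for *Angpt2* and *Tie1*. *Tek* and *Ptprb*, the receptor and its phosphatase, had an r of 0.557 (exact permutation *p* = 0.104, adjusted *p* = 0.251) and a rho of 0.633 (exact permutation *p* = 0.076, adjusted *p* = 0.19). Of tested genes, 23.37% were as far from 0 in their r with *Tek* and 15.57% with *Ptprb*. With day means taken out the r of *Tek* and *Ptprb* was 0.945, a value given without a test or such a share. E16.5 replicate 2 was the highest sample for both genes, at 9.24 and 9.85.

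The number of pairs that passed depended on the normalization. It was 4 of 15 as deposited and with arrays centred on their median, and 1 of 15 after a second quantile normalization, the pair of *Angpt1* and *Tie1*. In that setting r was -0.793 for *Tie1* and *Svep1* (adjusted *p* = 0.062 by exact permutation) and 0.81 for *Angpt1* and *Svep1* (adjusted *p* = 0.0607 by exact permutation). Leaving out 1 sample at a time, a check added after the values had been seen, between 1 and 6 pairs passed. The r of *Angpt1* and *Tie1* then ranged from -0.947 to -0.899 and passed in all 9 cases. The permutations treat the 9 samples as exchangeable across days.

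**Figure D3:**
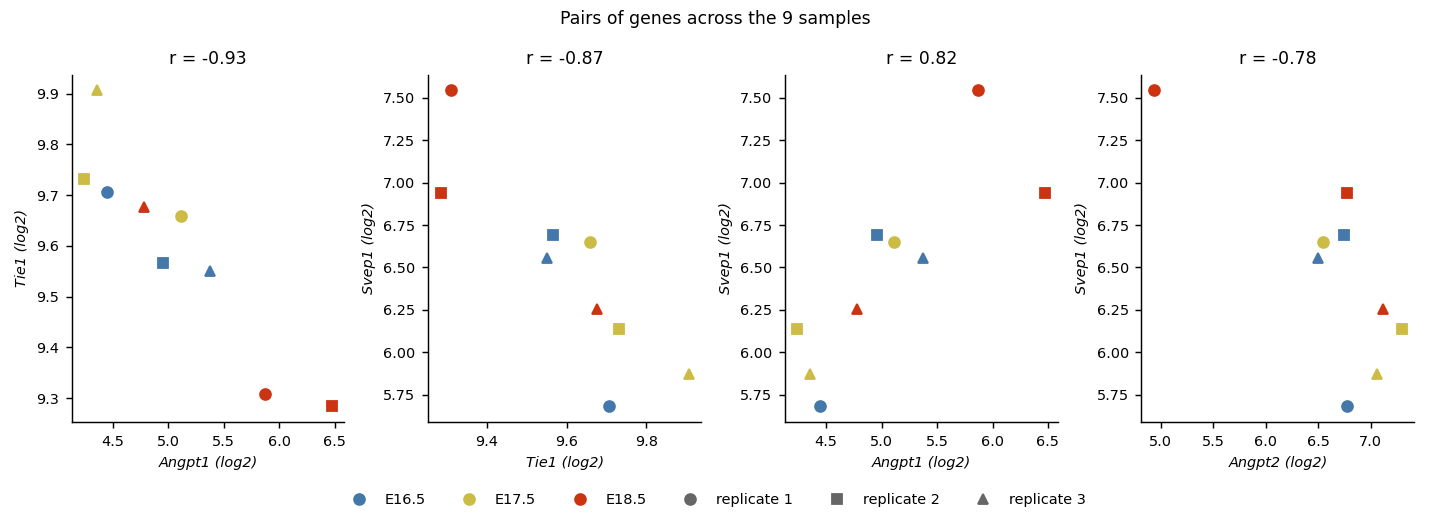
The 4 pairs of genes whose Pearson r passed at an adjusted p under 0.05, each plotted as log2 expression of one gene (horizontal) against the other (vertical), 1 point per sample, with color for the day and shape for the replicate. E18.5 replicates 1 and 2 lie at one end of the first 3 panels, and E18.5 replicate 1 stands alone at 4.94 on the *Angpt2* axis of the last.

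Some marker lists of cell types, though not all, had their extreme means in the same E18.5 replicates 1 and 2. The 10 fibroblast markers, of which 7 were above the array median on all arrays and 1 on none, had a mean log2 level of 6.13 to 6.72 at E16.5, 6.13 to 6.67 at E17.5 and 6.66 to 7.87 at E18.5. The highest were E18.5 replicates 1 and 2, at 7.87 and 7.55. The 10 genes did not move alike. *Dpt* and *Inmt* rose between E16.5 and E18.5 at an FDR *q* under 0.05 (limma), 7 of the 9 tested had a higher mean at E18.5, and the list's median log2 difference was 0.49 beside -0.04 for all tested genes. The log2 difference was -0.78 for *Dcn* and -0.06 for *Pdgfra*, neither of which passed. The mean level of 10 endothelial markers, all above the array median on all arrays, lay between 9.83 and 10.11, 10.07 and 10.16, and 9.75 and 10.01 on the 3 days. It was lowest in the same E18.5 replicates 1 and 2. The endothelial markers did not move alike either. Between E16.5 and E18.5 *Plvap* alone passed, with a log2 difference of -0.76 (FDR *q* = 0.0402, limma). Of the 10, 2 had a higher mean at E18.5, *Cldn5* and *Egfl7*, with log2 differences of 0.55 and 0.17. The endothelial list does not separate lymphatic from blood endothelium. It holds *Emcn*, which the paper describes as specific to blood endothelial cells and found lower in sorted PLECs than in CD31+/Vegfr3- cells. Here *Emcn* measured 10.31 to 10.94 over the 9 samples. The part of blood endothelial cells in these values was not tested.

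The relation of these lists to 6 of the genes was computed as 42 correlations, chosen after the values had been seen. With the fibroblast markers, r was 0.835 for *Angpt1*, 0.867 for *Svep1* and -0.890 for *Tie1* (exact permutation, adjusted *p* = 0.0419, 0.0196 and 0.0303). Their rho was 0.683, 0.7 and -0.75, and without the 2 samples farthest from each gene's median r was 0.469, 0.668 and -0.557. With the endothelial markers, r was 0.899 for *Tie1* and -0.823 for *Angpt1* (exact permutation, adjusted *p* = 0.0142 and 0.0405), with a rho of 0.867 and -0.75, and 0.774 and -0.639 without the 2 farthest samples. By rho, none of the 42 relations passed, with the lowest adjusted *p* at 0.0631 (exact permutation). For *Tek* and *Ptprb* none of the 14 relations passed by r, with adjusted exact permutation *p* values of 0.26 and above.

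The 4 leukocyte markers measured, of which *Cd68* alone was above the median on all arrays, moved with *Svep1* and against *Angpt2*. Their mean log2 level was 3.77 to 4.32 at E16.5, 3.76 to 4.04 at E17.5 and 3.83 to 5.04 at E18.5, with E18.5 replicate 1 highest. The r was 0.897 with *Svep1* and -0.929 with *Angpt2* (exact permutation, adjusted *p* = 0.0196 and 0.0297), and rho was 0.9 and -0.717. Without the 2 farthest samples r was 0.786 and -0.677. *Ptprc*, which encodes the CD45 used to gate leukocytes out, was above the array median only in E18.5 replicate 1, at 3.93.

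No relation with the other 4 lists passed. The 5 megakaryocyte and platelet markers averaged 5.91 to 6.23 at E16.5, 6.18 to 6.87 at E17.5 and 6.11 to 8.42 at E18.5, with the highest level in E18.5 replicate 1. The 9 epithelial markers averaged 5.54 to 6.54, 5.18 to 6.19 and 7.13 to 7.38 on these days, and the 9 mural cell markers 5.59 to 6.03, 5.35 to 5.92 and 5.55 to 6.12. The epithelial markers did not move alike. Between E16.5 and E18.5, *Scgb1a1* and *Aqp5* rose at an FDR *q* under 0.05 (limma), with log2 differences of 4.06 and 2.98. Of the 9, 7 had a higher mean at E18.5, whereas *Epcam* and *Nkx2-1* had differences of -0.21 and -0.14, neither of which passed. The 8 lymphatic markers measured averaged 6.87 to 7.12, 6.48 to 7.13 and 7.11 to 7.60. Of these 8, *Pdpn* alone passed the test between E18.5 and E16.5, with a log2 difference of 1.46 (FDR *q* = 0.0149, limma). In all, 6 had a higher mean at E18.5, and the log2 difference was 0.03 for *Lyve1*, -0.04 for *Flt4* and -0.45 for *Mmrn1*. The part of other cell types in the values of the 7 genes, of *Pdpn* and of the genes named below was not tested.

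**Figure D4:**
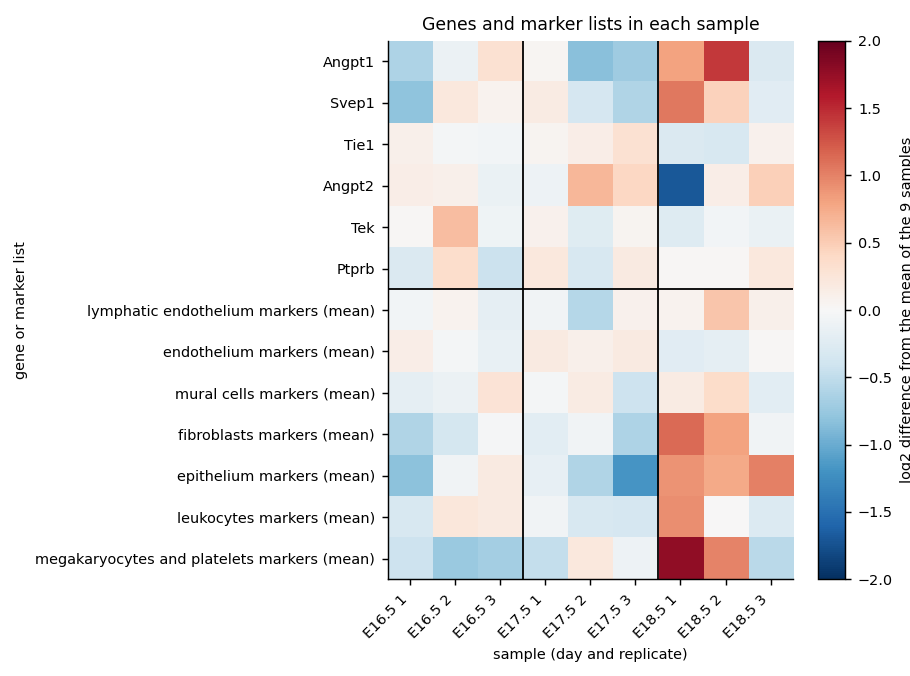
Log2 difference of each sample (columns) from the mean of the 9 samples, in color, for the 6 genes above the array median on all arrays (above the line) and for the mean of each marker list (below it). E18.5 replicates 1 and 2 are high for *Angpt1*, *Svep1* and the fibroblast markers and low for *Tie1* and the endothelial markers, and the low *Angpt2* of 4.94 is in E18.5 replicate 1.

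The genes whose values ran most closely with each pathway gene over the 9 samples differed from gene to gene. For *Angpt1* they were *Ccdc141* (r = 0.983), *Ugdh*, which encodes an enzyme that makes UDP-glucuronate (r = 0.971), and *Ell2*, a transcription elongation factor gene (r = 0.971). For *Angpt2* they were *Ctdp1*, a phosphatase gene of RNA polymerase II (r = 0.983), *Mterf4* (r = 0.952) and *Zfp57* (r = 0.951). E18.5 replicate 1 was the lowest sample for *Angpt2* (4.94), *Ctdp1* (5.77), *Mterf4* (3.75) and *Zfp57* (5.03), and r without it was not computed. *Mterf4* had the same value in all samples of E17.5. For *Svep1* they were *Lrp1*, an endocytic receptor gene (r = 0.969), *Sned1* (r = 0.967) and *Tbx5*, a transcription factor gene (r = 0.960). These are the 3 highest of the tested genes that have a symbol in each case, given as a description. *Lrp1* had the same value, 6.53, in E16.5 replicates 2 and 3 and in E18.5 replicate 3.

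The receptor genes and *Ptprb* had other neighbors. For *Tek* they were *Opa1*, a gene of mitochondrial fusion (r = 0.972), *Sbf2* (r = 0.969) and *Zfp280c* (r = 0.963). E16.5 replicate 2 was the highest sample for *Tek* (9.24), *Opa1* (6.91), *Sbf2* (8.42) and *Zfp280c* (6.65), and r without it was not computed. For *Tie1* they were *Eif2b2*, a translation initiation factor gene (r = 0.948), *Exoc3*, an exocyst gene (r = 0.947), and *D930048N14Rik* (r = 0.946). *Exoc3* had the same value, 6.17, in E16.5 replicates 1 and 2, E17.5 replicate 2 and E18.5 replicate 3. For *Ptprb* they were *Dop1a* (r = 0.945), *Kif1b*, a kinesin gene (r = 0.944), and the growth factor receptor gene *Igf1r* (r = 0.942). *Ptprb* (9.85), *Dop1a* (6.08) and *Kif1b* (6.66) were also highest in E16.5 replicate 2, whereas *Igf1r* was highest in E18.5 replicate 3 (8.35).

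Around the 7 genes, 76 genes were listed in 6 groups by their place in the pathway, and 70 of them were tested. Between E18.5 and E16.5, 3 rose and 0 fell at an FDR *q* under 0.05 (limma), beside 3.77% and 6.21% of all tested genes. At an unadjusted *p* under 0.05 there were 13 of 70, beside 28.1% of all tested genes, which is also the share to set beside the counts by group below. The median log2 difference was 0.04 over the 70 genes and -0.04 over all tested genes.

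Factors known to act on the expression of angiopoietin and Tie genes held 2 of the 3 genes that rose, of 17 tested. *Vegfa*, which encodes an endothelial growth factor, measured 7.20, 7.67 and 7.80 at E16.5, 8.20, 7.59 and 7.45 at E17.5, and 9.14, 9.03 and 8.92 at E18.5. All samples of E18.5 were above all others, with a log2 difference from E16.5 of 1.48 and an SE of 0.17 (FDR *q* = 0.00533, limma). The mean of the 9 epithelial markers was also above all other samples at E18.5, with 7.26, 7.13 and 7.38. The part of epithelial cells in the rise of *Vegfa* was not tested. *Epas1*, which encodes the hypoxia-inducible factor HIF-2alpha, measured 8.53, 8.47 and 8.22 at E16.5 and 8.93, 9.34 and 9.35 at E18.5, without overlap. At E17.5 it measured 8.98, 8.48 and 9.11, which overlapped with both other days. *Epas1* did not pass the moderated F test over the 3 days (FDR *q* = 0.0554). Its log2 difference between E18.5 and E16.5 was 0.80 with an SE of 0.16 (FDR *q* = 0.0245, limma). The call was lost when any 1 of 5 samples was left out, with FDR *q* values up to 0.0932, and with the replicate number as a block (FDR *q* = 0.0502).

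Of 16 Foxo factors and Foxo target genes tested, which Akt signaling below Tie2 is known to restrain, *Gadd45a* rose and none fell. This growth arrest gene measured 7.10, 6.54 and 6.71 at E16.5 and 7.61, 7.76 and 7.56 at E18.5, without overlap. The log2 difference was 0.86 with an SE of 0.16 (FDR *q* = 0.0219, limma), and the call was lost when any 1 of 4 samples was left out, with FDR *q* values up to 0.0918. The median log2 difference of these 16 genes was 0.05, and 6 were at an unadjusted *p* under 0.05.

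None of the other 4 groups held a gene that passed. Of 19 adaptors and kinases of Tie signaling, 2 were at an unadjusted *p* under 0.05. The largest log2 differences were 0.59 for *Tnip2*, whose protein binds Tie2, and -0.38 for the adaptor gene *Grb14* (FDR *q* = 0.239 and 0.174, limma). That of *Tnip2* was 0.28 without E18.5 replicate 3. Of 12 receptor partners and sheddases, 0 were at an unadjusted *p* under 0.05. *Itgav*, an integrin gene, had a log2 difference of 0.19 with an interval from -0.33 to 0.72, and *Pear1*, whose protein binds Svep1, had -0.18 with an interval from -0.45 to 0.10. The direction of *Itgav* turned without E18.5 replicate 2, to -0.036, and *Pear1* had -0.11 without replicate 1 of either day.

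Of 5 angiopoietin-like genes tested, 1 was at an unadjusted *p* under 0.05. It was *Angptl2*, with a log2 difference of -0.48 and an interval from -0.85 to -0.10 (FDR *q* = 0.105, limma). *Angptl4*, which encodes an inhibitor of lipoprotein lipase, had 0.61 with an interval from -0.43 to 1.65 (FDR *q* = 0.398), with 7.29 in E18.5 replicate 2 as its highest log2 value. Without that sample the difference was 0.087. Of the 4 phosphatase genes related to *Ptprb*, *Ptprj* alone was tested. Its log2 difference was 0.74 with an interval from 0.14 to 1.34 (FDR *q* = 0.114, limma).

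**Figure D5:**
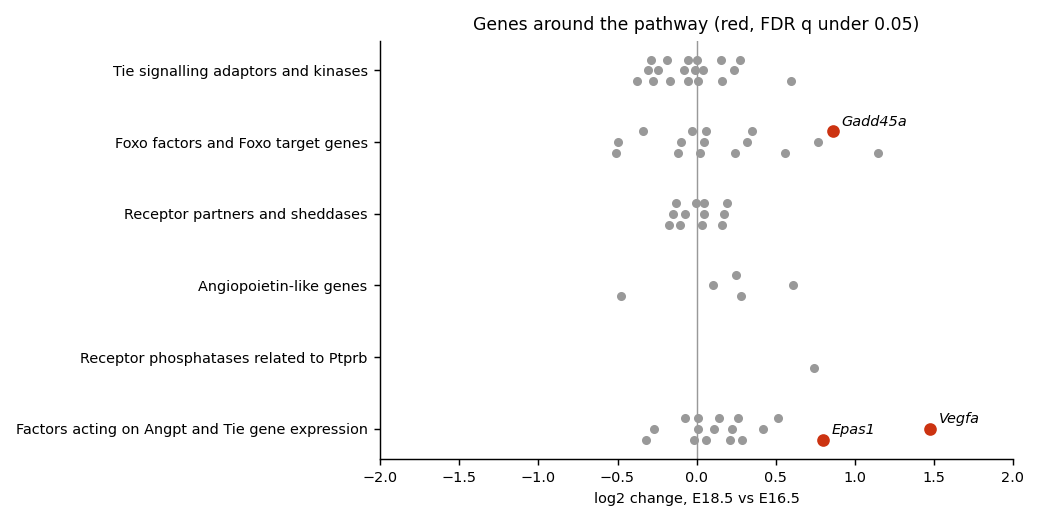
Log2 change between E18.5 and E16.5 (horizontal axis) of the 70 tested genes of 6 groups around the pathway (rows), 1 point per gene, in red for those at an FDR q under 0.05. The 3 genes in red are *Gadd45a*, *Epas1* and *Vegfa*, all higher at E18.5.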

How the data were processed

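Total RNA of sorted cells was measured on Mouse Gene 2.0 ST arrays, with 9 samples grouped by gestational day as the labels give it. The log2 values were made by the authors before they were deposited, as gene-level RMA values from affy 1.36.1 under R 2.15.1 with an Entrez Gene probe set mapping. RMA corrects the background, sets the probes of all arrays to a common distribution and summarizes the log2 probe values of a gene by median polish. Arrays give no counts, and their number limits the precision. Of 25206 genes, 23740 were named through RefSeq by Entrez number, and 1466 were not.

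Testing was limited to genes that exceeded the array median on 1 or more of 9 arrays. It used limma 3.58.1 (R 4.3.3), with Benjamini-Hochberg FDR *q* values over the 14096 tested genes and a call at a *q* under 0.05. The change between E18.5 and E16.5 was fitted on 6 arrays, and the F test and other changes on 9. Variances were moderated (eBayes) over all genes, a choice made after the values had been seen. Correlations used exact permutations of all pairings of 9 samples (two-sided) with Benjamini-Hochberg adjustment. Fits and correlations were tested on simulated data.

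The 7 genes and the lists were chosen with earlier results of these data known. The genes named are these 7, and of each pathway group the called genes (at most 4) or else the 2 with the largest change. For each of 6 genes, the 3 with the highest r among tested genes that have a symbol are named too. *Dpt*, *Inmt*, *Dcn*, *Pdgfra*, *Cd68* and *Ptprc* were named after their values were seen. Replicate numbers were not used as pairs. Alternatives were the replicate block, no filter on low values or one at 3 arrays, centred arrays, a second quantile normalization, eBayes with trend and robust settings, eBayes on the tested genes only, array quality weights, all 9 arrays in the fit, and leaving out each sample.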

Additional observations from a re-analysis of the deposited data

How the results depend on the processing

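Of 458 recomputed changes of the 7 genes, 443 kept their direction, 15 did not and 1 passed the threshold. Without E18.5 replicate 3, 1 of the 7 genes, *Angpt1*, passed between E18.5 and E17.5 and 1 over the 3 days; leaving out 1 sample, these counts ranged from 0 to 1, and the other 3 comparisons gave 0 in every setting run. With array quality weights the log2 difference of *Ptprb* from E17.5 to E18.5 was -0.018 and that of *Tek* between the later and earlier change was -0.051, both turned in direction. The cause of these changes and of those below was not tested.

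Leaving out 1 sample, the log2 difference between E18.5 and E16.5 ranged from 0.40 to 1.25 for *Angpt1*, 0.29 to 0.93 for *Svep1*, -0.82 to 0.27 for *Angpt2* and from -0.036 to 0.39 for *Itgav*. Between E17.5 and E16.5 it ranged from -0.35 to 0.0043 for *Tek*, -0.012 to 0.38 for *Ptprb* and -0.40 to 0.10 for *Svep1*. For *Ptprb* it ranged from -0.11 to 0.16 between E18.5 and E17.5 and from -0.42 to 0.11 for the later minus the earlier change, and for *Tek* the latter ranged from -0.12 to 0.23. Pathway genes that passed ranged from 1 to 3, with 1 without E16.5 replicate 2 or 3.

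The number of correlated pairs was 1 after a second quantile normalization and ranged from 1 to 6 leaving out 1 sample. Those correlations that turned in sign did not pass. For *Angpt2* and *Ptprb*, r was 0.039 with centred arrays, 0.014 after a second quantile normalization and -0.11 to 0.16 leaving out 1 sample. The range on leaving out 1 sample was -0.11 to 0.22 for *Angpt1* and *Ptprb*, -0.32 to 0.025 for *Angpt1* and *Tek*, -0.37 to 0.38 for *Angpt2* and *Tek*, -0.45 to 0.26 for *Tek* and *Svep1*, -0.072 to 0.43 for *Tek* and *Tie1* and -0.16 to 0.13 for *Tie1* and *Ptprb*. Without E18.5 replicate 2, the pairs of *Angpt2* with *Angpt1* (r = -0.877) and with *Tie1* (r = 0.86) passed as well.

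With eBayes on the tested genes only, 1251 genes passed between E18.5 and E16.5 and 1110 over the 3 days, in place of 1407 and 1281, and 0 of the 7 genes in each. Without the filter, 889 passed between E18.5 and E16.5. From E16.5 to E17.5 the count of 21 was 1 without the filter, 0 with the replicate block, 48 with centred arrays, 12 after a second quantile normalization, 5 with trend and robust settings and 127 with array quality weights. From E17.5 to E18.5 the count of 267 was 143 without the filter and 146 with the replicate block. Leaving out 1 sample, the counts of genes ranged from 390 to 1221 between E18.5 and E16.5, 658 to 1371 over the 3 days, 0 to 34 for the first interval and 6 to 640 for the second. Of 9 pairs of samples with the same replicate number, 2 correlated at over 0.1 (-0.36 to 0.29 over all 9), and no sample was closest to its own number on the other days (0 of 9). The samples share only a number, and the replicate block left 0 of the 7 genes and 2 of the pathway genes called.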
